A study of Mus musculus with 14 samples.

Results

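Neurexins, neuroligins and leucine-rich repeat transmembrane proteins (LRRTMs) are adhesion proteins that join the 2 sides of a synapse. The genes described here are Nrxn2, Nrxn3, Nlgn1, Nlgn2, Nlgn3, Lrrtm1, Lrrtm2, Lrrtm3 and Lrrtm4, taken by symbol from a table of counts for 23412 genes, and all 9 were found. They were measured in mouse cortex by RNA-seq and by ribosome profiling, in which the mRNA pieces covered by ribosomes (footprints) are sequenced after nuclease digestion. The control genotype is labelled Rpl22flox/flox;CamKCre+, and the knock-out (KO) genotype Fmr1X-Y; Rpl22flox/flox;CamKCre+, so both carry the floxed Rpl22 alleles and the Cre, and they differ by the loss of Fmr1, which encodes the RNA-binding protein FMRP. The source is named CAMKIIa-Ribotag mouse brain. A CamK promoter is known to drive Cre in forebrain excitatory neurons, but the labels describe footprints from brain lysate and no purification of tagged ribosomes, so the values are those of whole tissue.

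Neurexins sit mainly on the presynaptic membrane. Neuroligins and LRRTMs sit mainly on the postsynaptic membrane and bind neurexins across the cleft, and through their intracellular tails they meet scaffold proteins. NLGN1 is known mainly from glutamatergic synapses, NLGN2 from inhibitory synapses, NLGN3 from both kinds, and LRRTMs from glutamatergic synapses. Variants in neurexin and neuroligin genes have been linked to autism, which is also common in fragile X syndrome, the condition caused by loss of FMRP.

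RNA-seq was done on controls 1, 3, 6 and 8 and on KO mice 2, 4, 5 and 7 (n = 4 each), with 8847547 to 11371851 counts per library. Ribosome profiling was done on controls 1, 3 and 9 and on KO mice 2, 4 and 10 (n = 3 each), with 4124065 to 6033030 counts. Each of the 9 genes had between 498 and 4162 RNA counts and between 227 and 2518 footprint counts in every library, and all 9 passed the filter on low counts in both assays. Levels are given as CPM, a gene's counts per 1000000 counts of its library after TMM scaling, and a gene is called when its adjusted p-value is under 0.05. As a check of the labels, Fmr1 RNA ranged from 71.3 to 89.9 CPM in control libraries and from 18.1 to 23.4 CPM in KO libraries, and Fmr1 footprints from 111 to 115 CPM and from 5.82 to 8.54 CPM. KO mice 2, 4 and 7 were nearly identical in RNA, where a chi-square statistic over genes, divided by its degrees of freedom, was 1.18 to 1.32, against 1.99 to 11.8 in the other RNA pairs of 1 genotype. Footprint pairs of 1 genotype lay between 1.20 and 1.46, so all 3 footprint libraries of each genotype were about as alike as those KO RNA libraries. They were kept as separate replicates in the main tests, since footprints summed to 1 library per genotype can be tested only where RNA libraries set the spread. Such a fit, in which the lone footprint libraries are assumed to vary like the RNA libraries, called 62 genes in footprints in place of 3102 and 30 in footprint per RNA in place of 919, and none of the 9 genes in either. BC048546 alone held 2.25% to 2.49% of the footprint counts in controls, with 97141 to 150276 counts per library, against 68 to 74 counts in KO mice. Its RNA was low in both genotypes, at 52 to 64 counts in control libraries and 43 to 71 counts in KO libraries. The source of its footprint counts in controls was not tested.

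Summed levels of 5 marker genes each were compared between the genotypes, and no marker was at 0 in all libraries. Of all genes tested, 7.41% were called in RNA and 25.5% in footprints. Libraries of the 2 genotypes did not overlap for 15.1% of all genes in RNA and 37.3% in footprints. Whether the markers exceeded these shares was not tested. Excitatory neuron markers lay between 2112 and 2451 CPM in control RNA and between 2671 and 2992 CPM in KO RNA, where 2 of 5 rose and none fell. In footprints they lay between 4323 and 4418 CPM and between 4068 and 4211 CPM, where 1 fell (Camk2a, the most abundant) and 2 rose. Inhibitory neuron markers overlapped in RNA (1 rose and 1 fell) and lay between 1574 and 1618 CPM in control footprints and between 1637 and 1658 CPM in KO footprints, where 2 rose and 1, Gad2, fell. Astrocyte markers overlapped in RNA and lay between 1631 and 1674 CPM and between 1516 and 1535 CPM in footprints, with 2 of 5 called lower in each assay. Oligodendrocyte markers were lower in KO mice in RNA (4052 to 4394 against 4665 to 5118 CPM, 1 called lower) and in footprints (7797 to 7850 against 8011 to 8160 CPM, 3 called lower). Microglia markers overlapped in RNA and lay between 398 and 417 CPM and between 382 and 397 CPM in footprints, with C1qb as the 1 called gene, lower in both assays. Endothelial and choroid plexus sums overlapped in both assays, with none called in RNA. The choroid plexus sum was mostly Enpp2 (580 CPM in control RNA), while Ttr RNA ran from 3.01 to 263 CPM among controls and from 0.348 to 104 CPM among KO mice. In footprints 1 endothelial marker rose and 1 fell and the choroid plexus marker Ttr fell. Hypothalamic peptide genes were lower in KO mice, at 20.1 to 23.9 against 38.9 to 73.7 CPM in RNA (4 of 5 called) and 41.5 to 48.0 against 110 to 118 CPM in footprints (5 of 5 called). In such bulk samples, fewer cells of a type and less RNA per cell cannot be told apart. The part of these shifts in the results below was not tested.

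The first question was whether the mRNA levels of the adhesion genes differed with genotype. None of the 9 was called in RNA by edgeR or by DESeq2 (which called 8.45% of all genes), where edgeR called 7.41% of all 13507 genes tested (3.53% higher and 3.88% lower in KO mice). With the near-identical KO mice 2, 4 and 7 summed to 1 library, edgeR called 79 genes in place of 1001, and none of the 9. With edgeR, 3 of the 9 had an unadjusted p-value under 0.05: Nlgn1, Nlgn2 and Lrrtm4. The neurexins, Nlgn2 and Nlgn3 had positive log2 fold changes (KO minus control) and Nlgn1 and the LRRTMs negative ones, between -0.19 and 0.13, and the median was -0.014 against -0.0012 over all genes tested. Over 18 alternatives the sign changed in 4 for Lrrtm2, 2 for Lrrtm1, 2 for Lrrtm3 and 1 for Nrxn2. Signs of Nrxn3, Lrrtm4 and the neuroligins did not change. The second question was whether footprints differed. Here Nrxn2, Nrxn3 and Nlgn3 fell in KO mice, which makes 3 of 9 called against 25.5% of all 12158 genes tested, and 3 of 9 lower against 13.6%, with 11.9% of all genes higher. On plain library sizes 2 of the 9 were called (28.4% of all genes, 18.8% higher and 9.57% lower), Nrxn2 lower and Lrrtm2 higher, and a block for the title prefix gave 4, all lower, with Nlgn1 added (26.3% of all genes called). Of all footprint calls, 46.7% were higher in KO mice, and 66.3% on plain library sizes (54.7% when BC048546 was also left out). On TMM scaling 7 of the 9 had a negative footprint log2 fold change, and on plain library sizes 6 of 9 did, because Nlgn2 turned positive. The median footprint value of the 9 was -0.088 against 0.0054 over all genes, and -0.028 against 0.065 on plain library sizes.

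**Figure D1:**
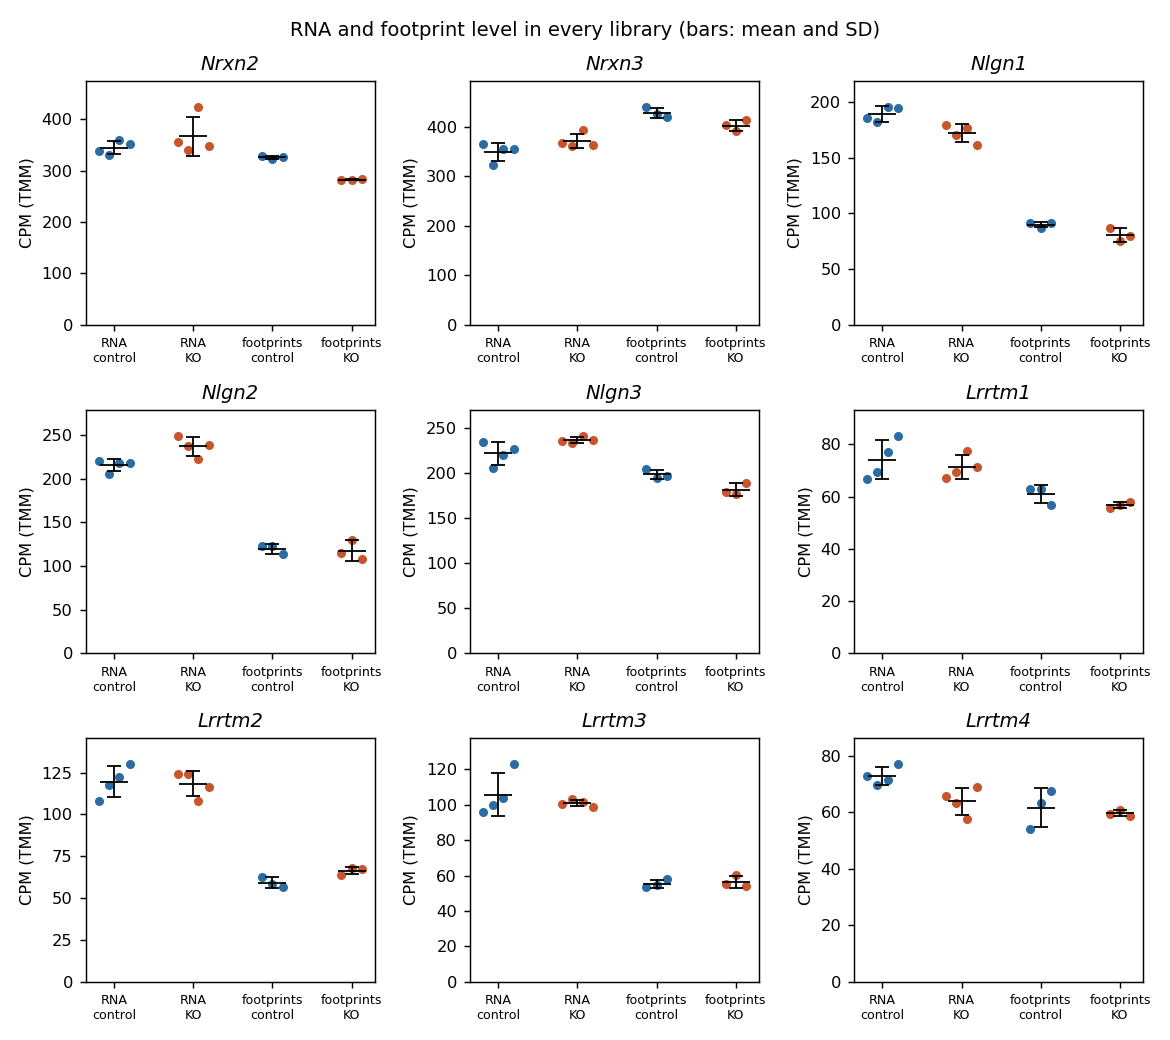
Level of each of the 9 adhesion genes in CPM (linear axis from 0) in every library, by assay and genotype. Points are mice (blue control, orange KO), the horizontal bar is the mean and the whiskers 1 SD. Nrxn2 footprints of all KO mice lie near 282 CPM and those of all controls above 322 CPM, while RNA libraries overlap.

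Nrxn2 encodes a neurexin and had the lowest footprint log2 fold change of the 9. Its footprints were at 328 CPM in control mouse 1, 322 CPM in mouse 3 and 327 CPM in mouse 9, and at 281 CPM in KO mouse 2, 283 CPM in mouse 4 and 283 CPM in mouse 10. The genotypes did not overlap, and the spread within each was small beside the gap between them, with a control mean of 326 ± 3.10 CPM and a KO mean of 282 ± 0.927 CPM (SD, n = 3 each). As the footprint libraries of each genotype were so alike over all genes, how much mice vary cannot be judged from this spread. The footprint log2 fold change was -0.21 ± 0.035 (SE, edgeR adjusted p = 1.39e-06), or 86.7% of control. This was the 628th smallest p-value of the 12158, and 19.2% of all genes had a lower log2 fold change. Nrxn2 RNA was at 338, 330, 359 and 352 CPM in control mice 1, 3, 6 and 8, and at 355, 340, 423 and 348 CPM in KO mice 2, 4, 5 and 7. KO mouse 5 was the highest and the other KO mice lay within the control range, and the log2 fold change of 0.088 ± 0.068 (SE, edgeR adjusted p = 0.481) was not called. Over 18 alternatives this RNA value lay between -0.0080 and 0.16, and its sign changed in 1 of them.

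Nrxn3 encodes another neurexin. Its footprints were at 440, 427 and 419 CPM in control mice 1, 3 and 9 and at 403, 391 and 414 CPM in KO mice 2, 4 and 10. The highest KO library, that of mouse 10, was just below the lowest control, that of mouse 9. The footprint log2 fold change was -0.088 ± 0.032 (SE, edgeR adjusted p = 0.0316), or 94.1% of control. Its RNA was at 365, 323, 355 and 355 CPM in control mice 1, 3, 6 and 8 and at 367, 362, 394 and 363 CPM in KO mice 2, 4, 5 and 7. The RNA libraries overlapped, and the log2 fold change of 0.089 ± 0.055 (SE, edgeR adjusted p = 0.361) was not called.

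Nlgn3, an X-linked neuroligin gene, followed the same order of genotypes as Nrxn3. Its footprints were at 204, 195 and 197 CPM in control mice 1, 3 and 9 and at 179, 177 and 190 CPM in KO mice 2, 4 and 10. No KO library reached the lowest control. The log2 fold change was -0.12 ± 0.044 (SE, edgeR adjusted p = 0.0262), or 91.8% of control. Its RNA was at 235, 205, 220 and 227 CPM in control mice 1, 3, 6 and 8 and at 236, 233, 242 and 237 CPM in KO mice 2, 4, 5 and 7. Control mouse 1 lay within the KO range, and the RNA log2 fold change of 0.095 ± 0.053 (SE, edgeR adjusted p = 0.307) was not called.

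Of these 3 footprint calls, that of Nrxn2 was kept under 12 of the 13 alternatives. It was near the threshold in 1 edgeR fit over all 14 libraries (-0.21 ± 0.068 SE, edgeR adjusted p = 0.0470), and it was lost with footprints summed to 1 library per genotype (-0.21 ± 0.14 SE, edgeR adjusted p = 0.588), as were those of Nrxn3 (0.805) and Nlgn3 (0.696). The calls of Nrxn3 and Nlgn3 were also lost on plain library sizes, where the log2 fold change was -0.028 for Nrxn3 (edgeR adjusted p = 0.558) and -0.064 for Nlgn3 (edgeR adjusted p = 0.291), and with BC048546 also left out (-0.063 and -0.099, edgeR adjusted p = 0.141 and 0.0860). They were also lost with DESeq2 (adjusted p = 0.134 and 0.132), in 1 edgeR fit over all 14 libraries (0.309 and 0.163), and without mouse 1 (0.155 and 0.115), 2 (0.0660 and 0.0885) or 4 (0.187 and 0.135), and the Nrxn3 call also without mouse 3 (0.0541). Library titles open with a prefix that is shared by mice 1 and 2, mice 3 and 4, and mice 9 and 10 in ribosome profiling. Within these 3 prefixes, which hold 1 library per genotype, the log2 difference (KO minus control) was -0.22 to -0.19 for Nrxn2, -0.13 to -0.019 for Nrxn3 and -0.19 to -0.053 for Nlgn3, whose direction is already fixed because the genotypes do not overlap.

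Nlgn1 encodes the neuroligin of glutamatergic synapses. Its RNA was at 185, 182, 195 and 195 CPM in control mice 1, 3, 6 and 8 and at 180, 171, 177 and 162 CPM in KO mice 2, 4, 5 and 7. All KO libraries lay below all controls, and the log2 fold change was -0.14 ± 0.054 (SE, edgeR adjusted p = 0.134), which was not called. Its footprints were at 91.3, 87.2 and 91.4 CPM in control mice 1, 3 and 9 and at 87.3, 75.0 and 79.8 CPM in KO mice 2, 4 and 10. KO mouse 2 reached control mouse 3, and the log2 fold change of -0.16 ± 0.065 (SE, edgeR adjusted p = 0.0654) was not called. It was called without mouse 2 (-0.21, edgeR adjusted p = 0.0248) and when the title prefix was a block (-0.16, edgeR adjusted p = 0.0481). The Nlgn1 log2 fold changes of RNA and footprints differed by less than their SEs.

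Nlgn2 encodes the neuroligin of inhibitory synapses, and its values pointed the other way in RNA. They were 221, 206, 218 and 218 CPM in control mice 1, 3, 6 and 8 and 249, 237, 223 and 239 CPM in KO mice 2, 4, 5 and 7. The genotypes did not overlap, and the RNA log2 fold change of 0.13 ± 0.053 (SE, edgeR adjusted p = 0.133) was not called. The Nlgn2 RNA value lay between 0.046 and 0.19 over 18 alternatives, and it was called in 2 of them. These were the fits without KO mouse 5 (0.17, edgeR adjusted p = 0.0433) and among mice 1 to 4 alone (0.19, edgeR adjusted p = 0.00284). Both fits count near-identical KO libraries as replicates, and with KO mice 2, 4 and 7 summed the value was 0.11 (edgeR adjusted p = 0.559). Its footprints overlapped, at 123, 123 and 113 CPM in control mice 1, 3 and 9 and 115, 130 and 107 CPM in KO mice 2, 4 and 10 (log2 fold change -0.027 ± 0.057 SE, edgeR adjusted p = 0.786).

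No LRRTM gene was called in either assay. Lrrtm4, whose product binds heparan sulfate proteoglycans as well as neurexins, had lower RNA in all KO mice, at 65.8, 63.2, 57.9 and 68.9 CPM in mice 2, 4, 5 and 7 against 72.8, 69.7, 71.3 and 77.2 CPM in control mice 1, 3, 6 and 8. Its RNA log2 fold change was -0.19 ± 0.067 (SE, edgeR adjusted p = 0.103). Its footprints overlapped, at 59.5, 60.9 and 58.9 CPM in KO mice 2, 4 and 10 and 54.1, 63.4 and 67.7 CPM in control mice 1, 3 and 9. With Nlgn1 and Nlgn2, this makes 3 of the 9 genes whose RNA libraries did not overlap between genotypes, where 15.1% of all genes tested did not.

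Lrrtm2, a postsynaptic ligand of neurexins, had the highest footprint log2 fold change of the 9. Its footprints were at 64.0, 67.9 and 67.4 CPM in KO mice 2, 4 and 10 and at 62.8, 58.2 and 56.9 CPM in control mice 1, 3 and 9. All KO libraries lay above all controls, and the log2 fold change of 0.17 ± 0.074 (SE, edgeR adjusted p = 0.0773) was not called. On plain library sizes it was called (0.23, edgeR adjusted p = 0.0123), as it was with BC048546 also left out (0.20, edgeR adjusted p = 0.0387). With Nrxn2, Nrxn3 and Nlgn3 it made 4 of the 9 genes whose footprint libraries did not overlap, where 37.3% of all genes tested did not. Lrrtm2 RNA lay between 108 and 130 CPM in controls and between 108 and 124 CPM in KO mice.

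Lrrtm1 and Lrrtm3 overlapped between genotypes in both assays. Lrrtm1 RNA lay between 66.8 and 83.4 CPM in controls and between 67.2 and 77.6 CPM in KO mice, and its footprints between 56.9 and 63.1 CPM and between 55.7 and 58.0 CPM. Lrrtm3 RNA lay between 96.2 and 123 CPM in controls, where mouse 8 was the highest, and between 99.0 and 103 CPM in KO mice. Its footprints lay between 53.6 and 57.9 CPM in controls and between 54.0 and 60.2 CPM in KO mice. The RefSeq gene table (assembly GRCm38.p6) places Lrrtm1 inside Ctnna2, Lrrtm2 inside Ctnna1 and Lrrtm3 inside Ctnna3, which encode alpha-catenins of cell junctions. None of these host genes was called in any measure, and their footprint log2 fold changes were 0.013 ± 0.039 for Ctnna2, 0.040 ± 0.057 for Ctnna1 and 0.49 ± 0.29 for Ctnna3 (SE, edgeR). How the authors assigned reads where genes overlap is not given in the sources used here.

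**Figure D2:**
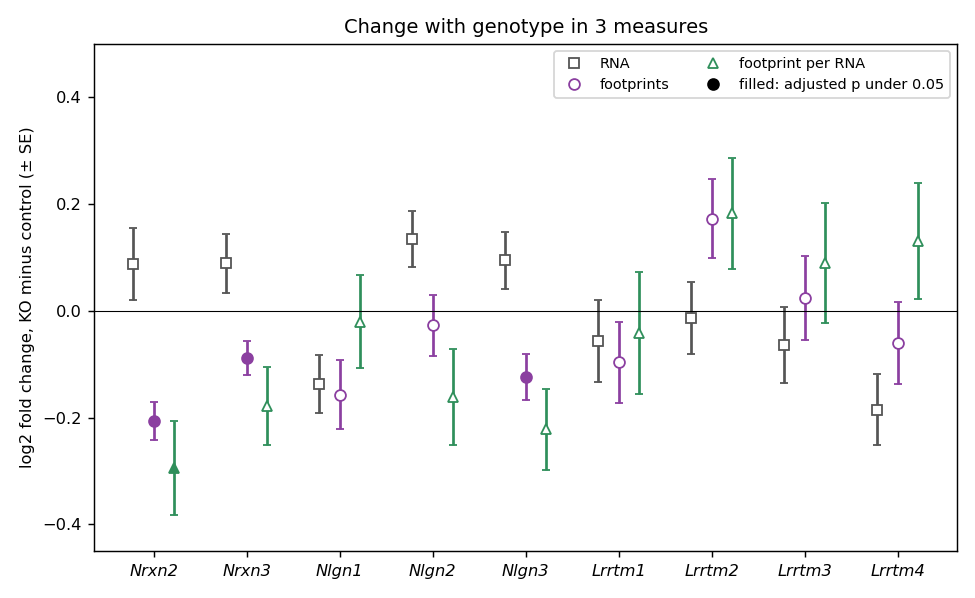
Log2 fold change (KO minus control, linear axis of log2 values) with its SE for each of the 9 genes in RNA, footprints and footprint per RNA; filled symbols have an adjusted p-value under 0.05. Nrxn2, Nrxn3 and Nlgn3 are filled in footprints, and Nrxn2 is the only filled symbol in footprint per RNA.

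The third question was whether footprints changed relative to mRNA, which is often called translational efficiency. It was tested as the interaction of genotype and assay in 1 model over all 14 libraries. Nrxn2 fell, with a log2 fold change of -0.29 ± 0.089 (SE, edgeR adjusted p = 0.0451), and the 8 others were not called. This makes 1 of 9 called, against 7.57% of all 12145 genes tested (4.04% lower and 3.52% higher). Of those calls 46.6% were higher in KO mice, and 67.6% on plain library sizes. With KO mice 2, 4 and 7 as 1 summed RNA library, Nrxn2 was called at -0.37 ± 0.094 (SE, edgeR adjusted p = 0.0321). That fit leaves mouse 5, the highest in Nrxn2 RNA, as the only other KO RNA library. The Nrxn2 RNA log2 fold change with the same sum was 0.16, against 0.088 in the main test. Footprint libraries were still counted as 3 replicates per genotype. The neurexins and neuroligins all had negative values. Besides Nrxn2 they were -0.18 ± 0.073 (SE) for Nrxn3 (edgeR adjusted p = 0.142), -0.22 ± 0.076 for Nlgn3 (0.0752), -0.16 ± 0.090 for Nlgn2 (0.295) and -0.020 ± 0.087 for Nlgn1 (0.917). The Nlgn1 value lay between -0.074 and 0.037 over 22 alternatives and turned positive in 3. Those of Nrxn2, Nrxn3, Nlgn2 and Nlgn3 kept their sign. The LRRTMs lay between -0.041 ± 0.11 for Lrrtm1 (adjusted p = 0.873) and 0.18 ± 0.10 for Lrrtm2 (0.315), with 0.090 ± 0.11 for Lrrtm3 (0.685) and 0.13 ± 0.11 for Lrrtm4 (0.522; SE, edgeR). Whether the LRRTMs differed from the neurexins and neuroligins was not tested.

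The Nrxn2 value lay between -0.37 and -0.22 over the 22 alternatives, and its call was lost in 11 of them: with footprints summed to 1 library per genotype (edgeR adjusted p = 0.513, and 0.719 with KO mice 2, 4 and 7 also as 1 summed RNA library), on plain library sizes (edgeR adjusted p = 0.0719), when the title prefix was a block (0.0563), and without mouse 1 (0.114), 2 (0.121), 3 (0.111), 4 (0.0758), 6 (0.0501), 9 (0.0882) or 10 (0.0920). Mice 1 to 4 were in both assays. With the mouse as a replicate block, Nrxn2 (-0.26, edgeR adjusted p = 0.00111), Nrxn3 (-0.22, edgeR adjusted p = 0.00696) and Nlgn3 (-0.27, edgeR adjusted p = 0.00326) were all called. The RNA of KO mice 2 and 4 is a near-identical pair, and with KO mice 2, 4 and 7 summed and no block Nrxn3 (edgeR adjusted p = 0.179) and Nlgn3 (0.147) were not called. Only those 4 mice carry the paired comparison, and 1844 of all genes were called with the block against 919 without it.

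The ratio of footprint CPM to RNA CPM in those 4 mice needs no model. For Nrxn2 it was 0.972 in control mouse 1 and 0.976 in control mouse 3, against 0.792 in KO mouse 2 and 0.832 in KO mouse 4. For Nrxn3 it was 1.21 and 1.32 against 1.10 and 1.08. For Nlgn3 it was 0.871 and 0.951 against 0.759 and 0.758. Both controls were above both KO mice for these genes and also for Nlgn2 and Lrrtm1, that is for 5 of the 9 genes, and for 27.4% of all genes.

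The ratios also order the 9 genes within control cortex. From the mean levels of each assay, the footprint to RNA ratio in controls was 1.23 for Nrxn3, 0.945 for Nrxn2, 0.896 for Nlgn3, 0.848 for Lrrtm4, 0.822 for Lrrtm1, 0.555 for Nlgn2, 0.524 for Lrrtm3, 0.496 for Lrrtm2 and 0.475 for Nlgn1. The median over all genes was 0.912. Nrxn3 was above 70.3% of all genes, and Nlgn1 above 16.6%. The single mice 1 and 3 did not overlap between Nrxn3 and any other member, nor between the group of Nrxn2, Nlgn3, Lrrtm1 and Lrrtm4 (0.742 to 0.976) and the group of Nlgn1, Nlgn2, Lrrtm2 and Lrrtm3 (0.480 to 0.597). The 4 RNA and 3 footprint libraries behind the means are not all of the same mice, and within the upper group mice 1 and 3 do not keep that order: Lrrtm1 (0.944 and 0.909) lay inside the range of Nlgn3 (0.871 and 0.951), and Lrrtm4 (0.742 and 0.909) overlapped both. Within the lower group the range of Lrrtm2 overlapped those of Nlgn2 and Lrrtm3. These ratios are relative to each assay's total and depend on the region counted, which is not given in the sources used here.

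**Figure D3:**
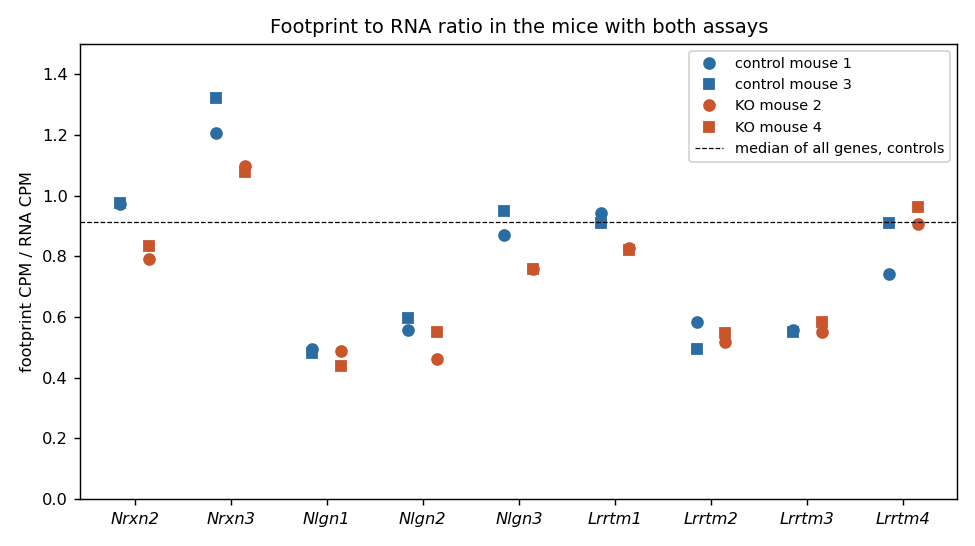
Footprint CPM divided by RNA CPM (linear axis from 0) for each of the 9 genes in control mice 1 and 3 (blue) and KO mice 2 and 4 (orange); the dashed line is the control median of all genes, 0.912. Nrxn2, Nrxn3, Nlgn2, Nlgn3 and Lrrtm1 have both orange points below both blue points, and Nlgn1, Lrrtm2, Lrrtm3 and Lrrtm4 do not.

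Each RNA library also had a column whose header ends in exon, with larger counts. The column without this suffix held between 36.1% (Lrrtm2, KO mice) and 75.0% (Nrxn2, KO mice) of the exon column's counts, against 54.6% ± 1.60 (SD, n = 4 control mice) for whole libraries. For Nlgn3 the share was 65.2% ± 1.79 in controls (62.7% to 66.9%) and 69.3% ± 0.977 in KO mice (67.9% to 70.1%; SD, n = 4 each). These ranges did not overlap, as for 5.49% of 13485 genes, and KO mice 2, 4 and 7 among them are the near-identical libraries. This gene was singled out after the values of all 9 were seen, and the 8 others overlapped. In the exon columns themselves, none of the 9 was called, and Nlgn3 had a log2 fold change of 0.024.

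Genes whose products meet neurexins and neuroligins were then counted from lists. Footprint calls in the lists count libraries about as alike as the near-identical KO RNA libraries as separate replicates. The lists were not counted with footprints summed to 1 library per genotype, so whether their shares depend on this was not tested. Of 22 neurexin ligands and extracellular modulators, 20 were tested, and of these none was called in RNA by edgeR (1 had an unadjusted p-value under 0.05). In footprints 5 were called, all lower (3 lower and 1 higher on plain library sizes), which is 25% against the 25.5% of all genes called, or 13.6% called lower. On plain library sizes it is 20% against 28.4%. In footprint per RNA 1, Mdga1, was lower (7.57% of all genes called), and none on plain library sizes (8.82% of all genes called) or with KO mice 2, 4 and 7 as 1 summed RNA library (4.37%). Mdga1, whose product binds neuroligins and blocks neurexin binding, went from 20.7 to 12.7 CPM in footprints, with a log2 fold change of -0.70 ± 0.14 (SE, edgeR adjusted p = 6.36e-05), and its RNA log2 fold change was -0.21 ± 0.078 (adjusted p = 0.109). Footprints of Dag1, which encodes the neurexin-binding dystroglycan, fell by 0.23 ± 0.043 on the log2 scale (SE, edgeR adjusted p = 1.38e-05). Those of Gpc4, a glypican that binds LRRTM4, fell by 0.26 ± 0.096 (SE, edgeR adjusted p = 0.0366). On plain library sizes the footprint calls of Mdga1 and Dag1 held, and that of Gpc4 did not (adjusted p = 0.116).

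The list of other trans-synaptic adhesion genes held 47 symbols, of which 7 are second names of latrophilins and teneurins not in the table, and all 40 others were tested. Of these 40, 21 were called in footprints, 15 lower and 6 higher (12 and 7 on plain library sizes), which is 52.5% against 25.5% of all genes, and 47.5% against 28.4% on plain library sizes. In RNA 4 were called, 3 lower and 1 higher (10% against 7.41%). None was called in RNA with KO mice 2, 4 and 7 summed. In footprint per RNA 4 were lower and 2 higher (15% called against 7.57%), with 3 and 3 on plain library sizes (15% against 8.82%), and 4 lower and none higher with KO mice 2, 4 and 7 as 1 summed RNA library, which called 4.37% of all genes. All 4 teneurins, which are large ligands of latrophilins, fell in footprints, with log2 fold changes between -0.46 and -0.27, and none was called in RNA (1 was lower on plain library sizes). Tenm1 went from 123 to 89.3 CPM in footprints and Tenm2 from 196 to 142 CPM. The receptor phosphatases Ptprd, Ptprf and Ptprs, presynaptic organizers, also fell in footprints, by 0.13 to 0.40 on the log2 scale (2 of the 3 on plain library sizes), and their RNA values lay between -0.020 and 0.016. Of 6 Slitrk genes, postsynaptic partners of these phosphatases, 3 rose in footprints and none fell, with Slitrk2 at 0.20 ± 0.074 (SE, edgeR adjusted p = 0.0302) and Slitrk4 at 0.18 ± 0.061 (SE, edgeR adjusted p = 0.0222). Of the other families, 2 of 3 latrophilins were lower (1 on plain library sizes), 2 of 4 Cadm genes higher and 1 lower (3 higher and 1 lower on plain library sizes), 1 of 3 Lrrc4 genes higher, and none of 3 Flrt and 5 Lrfn genes was called in footprints. The families were grouped after the values were seen.

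Ntng1, which encodes the presynaptic netrin-G1, fell in footprints by 0.42 ± 0.13 on the log2 scale (SE, edgeR adjusted p = 0.0136), while Lrrc4c, which encodes its postsynaptic ligand NGL-1, rose by 0.27 ± 0.081 (SE, edgeR adjusted p = 0.00801). Ptprf (-0.38 ± 0.082 SE, edgeR adjusted p = 0.00514), Tenm2 (-0.39 ± 0.093 SE, edgeR adjusted p = 0.0116) and Tenm4 (-0.32 ± 0.090 SE, edgeR adjusted p = 0.0321) fell in footprint per RNA. There Slitrk2 (0.36 ± 0.10 SE, edgeR adjusted p = 0.0289) and Flrt3 (0.35 ± 0.10 SE, edgeR adjusted p = 0.0456) rose. Flrt3 footprints were not called (0.12 ± 0.083 SE, edgeR adjusted p = 0.322), and its RNA was lower in KO mice (-0.22 ± 0.060 SE, edgeR adjusted p = 0.0367), a call lost with KO mice 2, 4 and 7 summed (0.344). Slitrk2 RNA had a log2 fold change of -0.16 ± 0.063 (SE, edgeR adjusted p = 0.131), which was not called. With KO mice 2, 4 and 7 as 1 summed RNA library, Ptprf, Tenm2 and Tenm4 were called, and Slitrk2 (edgeR adjusted p = 0.0956) and Flrt3 (0.146) were not. On plain library sizes Tenm4 lost its call in footprint per RNA (-0.26 ± 0.083 SE, edgeR adjusted p = 0.0556), and Ptprf, Tenm2, Slitrk2 and Flrt3 were called.

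Of 19 intracellular partners and shedding proteases, 18 were tested in footprints, with 6 lower and 4 higher (2 lower and 5 higher on plain library sizes), which is 55.6% called against 25.5% of all genes, and 38.9% against 28.4% on plain library sizes. RNA had 1 lower and 1 higher (10.5% against 7.41%), and none with KO mice 2, 4 and 7 summed. Dlg3, a scaffold of the PSD-95 family, rose in RNA by 0.26 ± 0.059 on the log2 scale (SE, edgeR adjusted p = 0.0195) and fell in footprints by 0.15 ± 0.039 (SE, edgeR adjusted p = 0.00202). Its RNA value was 0.28 ± 0.082 and not called (SE, edgeR adjusted p = 0.161) with KO mice 2, 4 and 7 summed. In footprint per RNA it was the only gene of this list called (-0.40 ± 0.084 SE, edgeR adjusted p = 0.00425), which is 5.56% of the list against 7.57% of all genes. There 3 were called higher and 1 lower on plain library sizes, which is 22.2% against 8.82%. Footprints of the scaffold genes Magi2 (-0.24 ± 0.060 SE, edgeR adjusted p = 0.00116) and Dlg1 (-0.18 ± 0.041 SE, edgeR adjusted p = 0.000418) and of the protease gene Bace1 (-0.19 ± 0.068 SE, edgeR adjusted p = 0.0276) fell. Those of Lin7b (0.33 ± 0.070 SE, edgeR adjusted p = 8.76e-05) and Lin7a (0.27 ± 0.079 SE, edgeR adjusted p = 0.00711), adaptors that bind CASK, and of Adam10 (0.17 ± 0.057 SE, edgeR adjusted p = 0.0159), a sheddase, rose. On plain library sizes the footprint calls of Magi2, Dlg1, Lin7b, Lin7a and Adam10 held, and those of Dlg3 (-0.090 ± 0.039 SE, edgeR adjusted p = 0.0747) and Bace1 (-0.13 ± 0.068 SE, edgeR adjusted p = 0.144) did not.

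**Figure D4:**
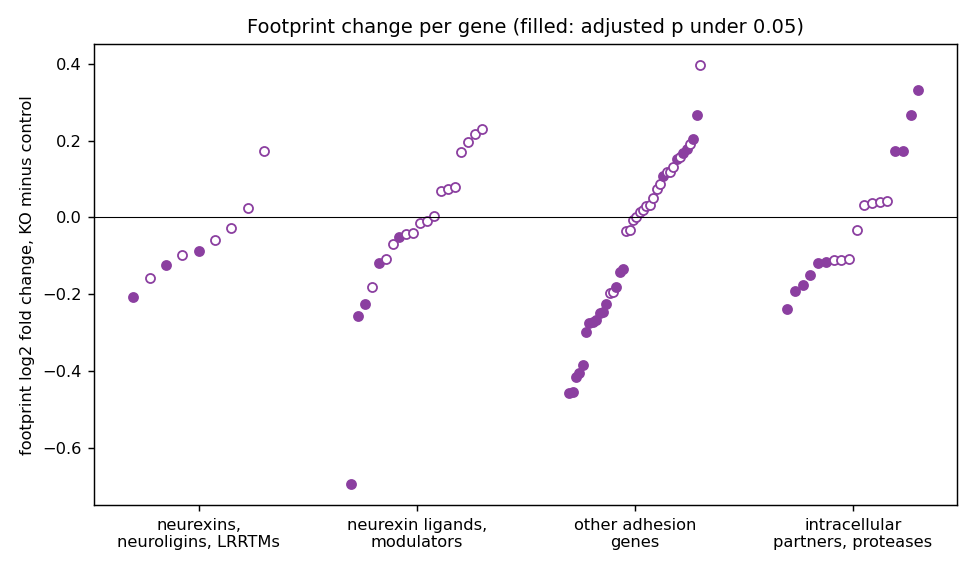
Footprint log2 fold change (KO minus control, linear axis of log2 values) of each tested gene, sorted within the 9 adhesion genes and within the 3 lists; filled points have an adjusted p-value under 0.05. Calls are 3 lower among the 9, 5 lower among ligands and modulators, 15 lower and 6 higher among other adhesion genes, and 6 lower and 4 higher among intracellular partners, which is 33.3%, 25%, 52.5% and 55.6% of each set against 25.5% of all genes; on plain library sizes the shares are 22.2%, 20%, 47.5% and 38.9% against 28.4%.

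The mean profile of the 9 genes over the 14 libraries, as log2(CPM + 0.5) centred within each assay, was most like those of Ndrg4 (Pearson's r = 0.947), Bai2 (0.920) and Stau2 (0.904) among 8918 genes. The members themselves had r between 0.038 (Lrrtm2) and 0.776 (Lrrtm1) with that mean, of which each is a part. The points share libraries, depth and scaling, and the r values are a description over 14 libraries of 10 mice.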

How the data were processed

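RNA-seq (8 libraries) and ribosome profiling (6 libraries) were used. The authors deposited whole-number counts per gene, 1 column per library, not normalized; 2849 genes hold no value in footprints or in the suffix-less RNA columns, which were the RNA columns tested. Per the submitters' processing notes, the tools were Bowtie2, STAR 2.5, featureCounts and Subread 1.4.6, and the builds mm9 and mm10; their roles, the annotation, the strand setting and the region counted are not given in the sources used here, so no coordinates are printed.

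Genotypes were compared within each assay by the quasi-likelihood F test of edgeR 4.0.16 in R 4.3.3, with TMM factors per assay, filterByExpr at a minimum count of 10 and Benjamini-Hochberg adjustment over all genes tested. Footprint per RNA was the interaction of genotype and assay over 14 libraries. SEs were derived from the F statistic. On simulated footprints of 12065 genes, 78.4% of changes of 0.5 on the log2 scale were recovered; for footprint per RNA (12063 genes) 52.0% were. Alternatives were DESeq2 1.42.0, plain library sizes, no filter, each mouse left out, title prefix or mouse as a block, 1 fit over all libraries, exon columns, RNA libraries summed (KO mice 2, 4 and 7, and these with controls 1 and 3), and subsets of mice; joint TMM factors, summing KO mice 2, 4 and 7 alone in footprint per RNA and in the lists, footprints summed per genotype, and plain library sizes without BC048546 (the gene of lowest footprint log2 fold change) were added after seeing the data. Library pairs were compared on genes whose counts in both sum to 20 or more.

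The labels give the same mouse number to both assays for mice 1 to 4, which pairs them; deviations of the paired libraries from their group means correlated by only -0.012 to 0.035 over genes. The labels name separate mice as replicates. The members, lists and alternatives were chosen with earlier results of these data known. Named genes are the 9 members, Fmr1, the 3 alpha-catenin genes, and from each list up to 3 called genes with the largest rise and 3 with the largest fall in footprints and in footprint per RNA, at a mean of at least 1 CPM in both assays, and the 3 genes of highest Pearson r to the members' mean centred profile over 14 libraries, at a mean of at least 10 CPM in both assays; Tenm3, Ptprd and Ptprs, Tenm4 in footprints, the family grouping, BC048546, Camk2a, Gad2, C1qb, Enpp2 and Ttr lie outside this rule and were chosen after their values were seen. Levels per coding length were planned but not computed.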

Additional observations from a re-analysis of the deposited data

Results flagged for a closer look

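In 18 groups of 4 RNA libraries (9 genes, 2 genotypes), a library was looked for whose gap to the nearest other exceeded Dixon's 95% critical share of the group's range. This was found in 2 groups, and chance flags about 1 in 20 groups of independent samples. The groups come from the same libraries, and KO mice 2, 4 and 7 are near-identical in RNA, so neither the groups nor the 4 KO libraries are independent and that rate does not hold for the KO groups. Nrxn3 RNA in KO mouse 5 was at 394 CPM, against 362 to 367 CPM in the other KO mice, a gap of 0.847 of the range; the other KO mice are the near-identical 2, 4 and 7. Nlgn2 RNA in control mouse 3 was at 206 CPM, against 218 to 221 CPM in the other controls, a gap of 0.843 of the range. Nrxn3 was not called in RNA with or without KO mouse 5.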

How the results depend on the processing

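The number of the 9 genes called in footprints was 3, and it was 1 with DESeq2 and 1 in a single fit over all 14 libraries (which called 1801 and 1660 of all genes, against 3102), with 1 to 3 when a mouse was left out (2558 to 2855 of all genes); the call kept each time was that of Nrxn2. It was 0, with 62 of all genes called, in a fit with RNA and footprints summed to 1 library per genotype. In footprint per RNA 1 of the 9 was called, against 0 on plain library sizes and 0 when the title prefix was a block, 2 with DESeq2 (1071, 765 and 980 of all genes called, against 919), 3 with mice 1 to 4 only, 3 with the mouse as a replicate block, and 0 with footprints summed, also when KO mice 2, 4 and 7 were 1 summed RNA library (30 and 5 of all genes called). When a mouse was left out it was 0 to 2, and of all genes 400 to 1284 were called. Of all genes, 919 were called there, against 531 with KO mice 2, 4 and 7 as 1 summed RNA library, 537 when RNA of controls 1 and 3 was summed as well, 1827 with mice 1 to 4 only and 1844 with the replicate block. In RNA 0 of the 9 were called, against 1 (Nlgn2) with mice 1 to 4 only and 0 to 1 when a mouse was left out. Of all genes, 1001 were called in RNA, against 1708 in 1 fit over all 14 libraries, 79 with KO mice 2, 4 and 7 summed, 36 with control mice 1 and 3 also summed, 88 with mice 5 to 8 only, 3273 with mice 1 to 4 only, and 356 to 1763 when a mouse was left out. Plain library sizes raised the share of higher calls among all footprint calls from 46.7% to 66.3% and in footprint per RNA from 46.6% to 67.6% (54.7% and 55.2% when BC048546 was also left out). No called value of the 9 genes changed sign under any alternative. Fits on fewer libraries called more genes in some cases (3273 in RNA with mice 1 to 4 only) and fewer in others (88 with mice 5 to 8 only). The cause was not tested for any setting. The LRRTMs had the lowest footprint counts, down to 227 in a library, with SEs of 0.074 to 0.079 on the log2 scale.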
